A study of Mus musculus with 1528 samples.

Results

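The genes described are 7 CXC chemokines, Cxcl1, Cxcl2, Cxcl3, Cxcl9, Cxcl10, Cxcl14 and Cxcl16, chosen by name from the 55421 genes of a table of counts by matching each symbol to its Ensembl identifier. Each symbol matched 1 gene. They were followed in single bone marrow–derived macrophages (BMDMs), cells grown from marrow with the macrophage growth factor M-CSF, for 7 days according to the methods of the study. The marrow came from 2 wild-type C57BL/6 mice (male C57BL/6J mice according to those methods, age not given in the sources used here), and no transgene or deletion was present in either treatment. Cells of each mouse were stimulated for 24 h with IL4+IL13 alone or together with TNF, each cytokine at 10 ng/ml, so IL4 and IL13 were shared by both treatments and TNF was the only difference named by the labels. Cells stained to tell live from dead were sorted singly into the wells of 4 plates and sequenced with Smart-seq2, a full-length cDNA method without molecular identifiers. Plates 2 and 3 held mouse 1 and plates 4 and 5 held mouse 2, each with IL4+IL13 in well rows A to H and IL4+IL13+TNF in rows I to P, so treatment and position on the plate cannot be told apart. A difference between the mice is likewise also a difference between their plates. After filtering on depth and quality, 1386 of 1524 wells remained, with 357 and 333 cells of mouse 1 and mouse 2 under IL4+IL13 and 347 and 349 under IL4+IL13+TNF. Where a pair of values follows a treatment, the first is from mouse 1 and the second from mouse 2.

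CXC chemokines are small secreted proteins named for a residue that separates their first cysteines, and they attract leukocytes through G protein-coupled receptors. CXCL1, CXCL2 and CXCL3 act on CXCR2 and draw neutrophils, CXCL9 and CXCL10 act on CXCR3 and draw activated T cells, and CXCL14 is made mainly by epithelia. CXCL16 differs in that it is anchored in the membrane, where it binds CXCR6 on T cells and takes up oxidised lipoprotein, and it is released when proteases cut its stalk. TNF is known to switch on many such genes in macrophages through NF-kB, and interferons are known inducers of CXCL9 and CXCL10.

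On mouse chromosome 5 (mm10, Ensembl 98 positions of the count table), Cxcl3 (ENSMUSG00000029379, chr5:90786103-90789600), Cxcl1 (ENSMUSG00000029380, chr5:90891241-90893115) and Cxcl2 (ENSMUSG00000058427, chr5:90903871-90905938) follow each other on the plus strand. Cxcl1 and Cxcl2 are 10755 bases apart. Cxcl9 (ENSMUSG00000029417, chr5:92321347-92328079) and Cxcl10 (ENSMUSG00000034855, chr5:92346638-92348889) form another pair on the minus strand of the same chromosome, 18558 bases apart. Cxcl14 (ENSMUSG00000021508) lies at chr13:56288643-56296551 and Cxcl16 (ENSMUSG00000018920) at chr11:70453983-70459984, both on the minus strand.

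RefSeq promoter sequences were held for 6 of the 7 genes, all but Cxcl16 (GRCm38.p6, 250 bases before the annotated start). The stretches below are shown because Cxcl1, Cxcl2 and Cxcl3 shared a 9-base match to an NF-kB site close to the start, and Cxcl10 carried the same letters on the other strand together with a second NF-kB-like match and an interferon-response-like match. Each is written 5′ to 3′ on the strand of its gene, lies before the start of the gene, and has the matches in capitals: chr5:90891115-90891214 for Cxcl1, chr5:90903769-90903868 for Cxcl2 and chr5:90785971-90786070 for Cxcl3 on the plus strand, and chr5:92348980-92349109 for Cxcl10 on the minus strand.
Cxcl1: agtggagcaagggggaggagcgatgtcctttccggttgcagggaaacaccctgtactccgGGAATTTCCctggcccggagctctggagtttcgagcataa
Cxcl2: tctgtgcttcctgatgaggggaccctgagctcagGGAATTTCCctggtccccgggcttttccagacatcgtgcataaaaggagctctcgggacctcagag
Cxcl3: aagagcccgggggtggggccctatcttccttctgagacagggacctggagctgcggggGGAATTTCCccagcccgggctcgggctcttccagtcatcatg
Cxcl10: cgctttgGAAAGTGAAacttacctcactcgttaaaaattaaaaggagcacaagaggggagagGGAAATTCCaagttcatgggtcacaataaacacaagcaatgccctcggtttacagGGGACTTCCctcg

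The NF-kB-like letters GGAATTTCC, or their reverse complement GGAAATTCC, were present in 4 of these 6 promoters and in 94 of 32851 promoters in all (0.286%). They began 70 bases before the start of Cxcl1, 96 before that of Cxcl2, 72 before that of Cxcl3 and, on the opposite strand, 158 before that of Cxcl10. GGGACTTCC, searched on both strands, was found in Cxcl10 and in 0.685% of all promoters. The interferon-response-like letters GAAANNGAA, where N is any base, were found in Cxcl9, Cxcl10 and Cxcl14 and in 7.13% of all promoters. The motifs were picked with these promoters in view, and a match describes letters, not a bound site.

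The cells were checked against marker genes of the labelled cell type. All 8 macrophage markers (Adgre1, Csf1r, Cd68, Itgam, Lyz2, Mertk, Fcgr1 and Mrc1) were found in every set of mouse and treatment, with a summed level of 16395 to 18392 CPM (fragments of a gene per 1000000 fragments of the library) under IL4+IL13 and 27155 to 27535 under IL4+IL13+TNF. The higher sum came from Lyz2, a lysozyme, at 11432 and 12683 CPM, then 24837 and 23524 CPM. With the mouse as a block in edgeR, a call made for 3.82% of all genes in either direction, 1 of the 8 markers rose (Lyz2, log2 fold change 1.01, adjusted p 0.00743) and 3 fell: the Fc receptor Fcgr1 (-1.73, adjusted p 0.00798), the mannose receptor Mrc1 (-0.89, adjusted p 0.0289) and the receptor kinase Mertk (-1.19, adjusted p 0.0317). The 8 neutrophil markers summed to 1.06 and 2.32 CPM under IL4+IL13 and 1.74 and 5.65 under IL4+IL13+TNF. Elane was at 0 in 3 of the 4 sets, while S100a8 was found in 8.26% of IL4+IL13 cells and 20.4% of IL4+IL13+TNF cells. Cells with 3 or more neutrophil markers made up 7.16% in mouse 2 with TNF and 0% in each other set. The 8 dendritic cell markers summed to 9.92 and 14.4 CPM under IL4+IL13 and 31.1 and 212 under IL4+IL13+TNF. Ccr7 alone read 21.3 and 194 CPM of the latter after scaling by edgeR's TMM factors. Fscn1 and Zbtb46 were also higher with TNF in both mice. Cd209a was lower, at 1.31 and 1.41 CPM, then 0.006 and 0.273 CPM, scaled likewise. Siglech was lower too, at 0.708 and 1.99 CPM, then 0 and 0.023 CPM. Flt3 changed little, and Xcr1 and Clec9a went opposite ways in the mice. Cells with 3 or more dendritic cell markers made up 1.68% and 6.91% under IL4+IL13 and 2.59% and 12.03% with TNF. Stromal and lymphocyte markers stayed between 0.217 and 2.38 CPM in every set. The part of cells with neutrophil or dendritic cell markers in the chemokine values was not tested.

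TNF was compared with IL4+IL13 alone to ask how the chemokines respond when TNF joins a type 2 stimulus. For Cxcl2 and Cxcl16, every plate with TNF was above every plate without it. Cxcl1 and Cxcl3 were higher with TNF within each of the 4 plates, but their plates overlapped between treatments. On plate 4, Cxcl3 had 30 fragments without TNF and 39 with it. How many of all genes were higher within every plate was not counted. For Cxcl1 and Cxcl3 the difference was greater in mouse 1 than in mouse 2. This difference between mice was not tested because 4 sums leave no spread to test it against. Cxcl10 had no common direction over plates, and Cxcl9 and Cxcl14 were found in few cells. Counts were summed per mouse and treatment, which gave 4 sums of 162260282 to 179757666 fragments, and tested with edgeR's quasi-likelihood test. 5 of the 7 genes entered the test. Cxcl9 and Cxcl14 were found in under 5% of the cells of both treatments and did not.

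No chemokine passed an adjusted p of 0.05 in edgeR's quasi-likelihood test with treatment as the only term (0 of 5 tested), against 1 of 17034 genes in all, or 0.00587%, in either direction and 0.00587% counting higher genes only. At an unadjusted p under 0.05, 3 of the 5 chemokines and 1380 genes passed. With the mouse as a block, which is how the samples pair, edgeR called 2 of the 5, Cxcl2 and Cxcl16, both higher with TNF, against 3.82% of all genes in either direction and 1.94% counting higher genes only. DESeq2 without the block called 4 of the 5, Cxcl1, Cxcl2, Cxcl3 and Cxcl16, all higher, against 3.51% in either direction and 1.79% counting higher genes only. Both TNF sums were above both IL4+IL13 sums for the same 4 genes, a pattern that 18.6% of all genes tested also showed. All 4 TNF plates were above all 4 IL4+IL13 plates for Cxcl2 and Cxcl16, as for 4.03% of all genes tested. The median log2 fold change was 4.03 over the 5 chemokines tested and 0.0038 over all genes tested. The former is the value of Cxcl3 (SE 1.66), which was 2.90 without the highest cell of each set.

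**Figure D1:**
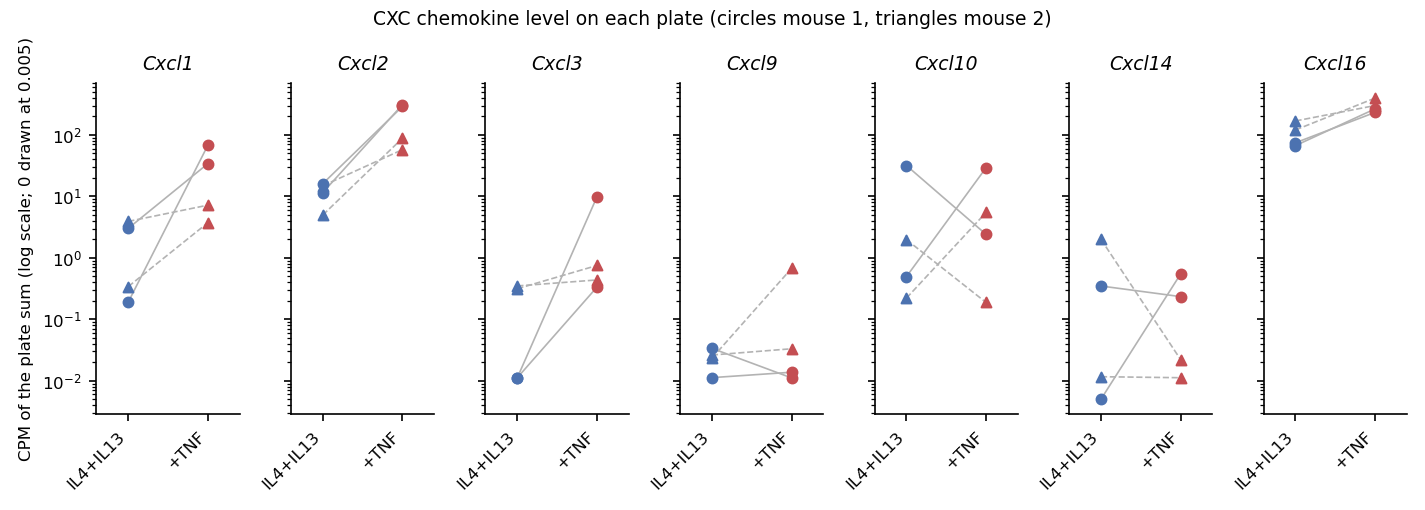
CPM of each CXC chemokine (log axis) on each of the 4 plates under IL4+IL13 and IL4+IL13+TNF, with a line joining the 2 treatments of a plate. For Cxcl2 and Cxcl16 all 4 lines rise and the treatments do not overlap, whereas the lines of Cxcl10 cross.

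Among the CXCR2 ligands, Cxcl2 had the highest level. Its level, scaled by edgeR's TMM factors, was 13.5 and 9.25 CPM under IL4+IL13 and 314 and 74.6 CPM under IL4+IL13+TNF. The lowest sum with TNF was thus several times the highest without it, and the sums with TNF differed more between the mice than those without. The log2 fold change was 4.09 (SE 0.76, n = 2 mice per treatment), with an adjusted p of 0.265 in edgeR's quasi-likelihood test. With the mouse as a block, Cxcl2 rose by 3.78 on the log2 scale (SE 0.39) at an adjusted p of 0.0148 in the same tool.

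By plate, Cxcl2 read 16.1, 11.6, 4.98 and 14.9 CPM on plates 2 to 5 under IL4+IL13 and 291, 310, 88.5 and 57.7 CPM under IL4+IL13+TNF. With TNF the plates of a mouse were closer to each other than to those of the other mouse, and each plate of mouse 1 was above each plate of mouse 2. Within plates the log2 ratio of TNF to IL4+IL13, with 0.5 CPM added, was 4.13 and 4.69 on the plates of mouse 1, and 4.02 and 1.92 on those of mouse 2. By well rows within a treatment, the mean per cell with TNF was 295 CPM in rows I to L and 314 CPM in rows M to P in mouse 1, and 66.6 and 61.1 CPM in mouse 2. Under IL4+IL13 it was 20.9 CPM in rows A to D and 9.81 CPM in rows E to H in mouse 1, and 12.2 and 8.56 CPM in mouse 2. All row means with TNF were above all row means without it.

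The share of cells with a Cxcl2 fragment was compared after thinning cells to 339000 fragments, which left out 136 shallower cells and kept 332 and 309 under IL4+IL13 and 303 and 306 under IL4+IL13+TNF. It was 22.3% (95% Clopper-Pearson interval 17.9 to 27.2%) and 41.7% (36.2 to 47.5%) under IL4+IL13 and 77.6% (72.4 to 82.1%) and 56.5% (50.8 to 62.2%) under IL4+IL13+TNF. Unthinned, the shares were 28.6% and 50.2%, then 79.5% and 61.9%. Both shares with TNF exceeded both without it, and intervals cover counting error only.

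Most Cxcl2-positive cells under IL4+IL13 held a trace: 64.7% and 50.3% of them had a single fragment, against 10.5% and 28.7% with TNF. In mouse 2 under IL4+IL13, many cells with a trace came in runs of successive wells, and the cause was not tested. The median level of positive cells was 2.42 and 3.49 CPM under IL4+IL13 and 228 and 7.35 CPM under IL4+IL13+TNF. Cells over 100 CPM, called high-expressing here, made up 3.36% (1.75 to 5.80%) and 3.003% (1.45 to 5.45%) under IL4+IL13. With TNF they made up 50.1% (44.8 to 55.5%) of the cells of mouse 1 and 18.6% (14.7 to 23.1%) of those of mouse 2. The mice differed little without TNF and their intervals lay far apart with it. A test over 2 mice against 2 cannot go below an exact permutation p of 0.3333, so no share was tested.

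**Figure D2:**
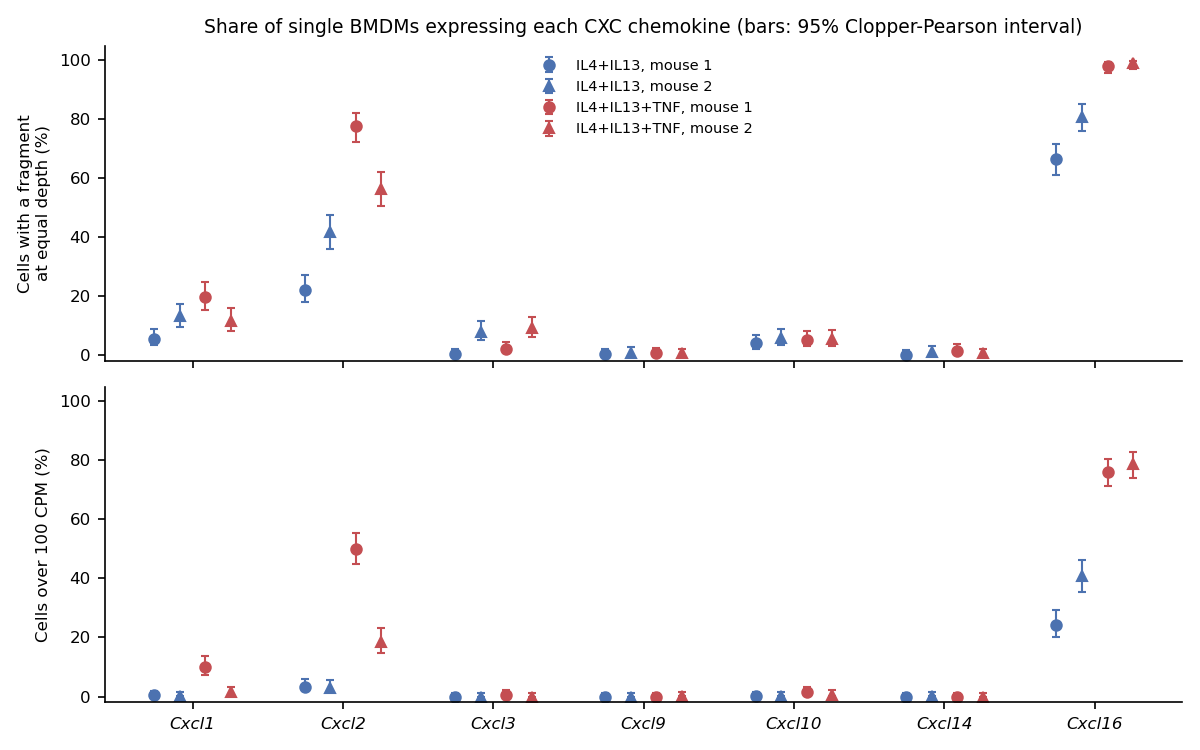
Share of cells with at least 1 fragment at equal depth (top, %) and share over 100 CPM (bottom, %) for each chemokine in each mouse and treatment, with 95% Clopper-Pearson intervals. High-expressing cells are common for Cxcl16 and Cxcl2 with TNF, reaching 78.8% and 50.1%, and stay at or under 10.1% for the other genes.

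Cxcl1, the neighbour of Cxcl2, encodes a ligand of the same receptor. Its level was 1.57 and 2.15 CPM under IL4+IL13 and 55.2 and 5.58 CPM under IL4+IL13+TNF. The treatments did not overlap, but the sum of mouse 1 with TNF stood far above that of mouse 2. The log2 fold change was 4.03 (SE 1.12), with an adjusted p of 0.434 in edgeR's quasi-likelihood test, 0.146 with the mouse as a block and 2.4e-05 in DESeq2. Without the TNF sum of mouse 2, the fold change was 4.89 and edgeR's adjusted p 0.0126, and without the TNF sum of mouse 1 the fold change was 1.59 and the adjusted p 0.788.

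By plate, Cxcl1 read 3.02, 0.191, 3.92 and 0.341 CPM on plates 2 to 5 under IL4+IL13 and 34.2, 68.2, 7.204 and 3.73 CPM under IL4+IL13+TNF. It was higher with TNF within every plate, though the lowest TNF plate did not clear the highest IL4+IL13 plate. At equal depth, Cxcl1 was found in 5.72% (3.48 to 8.79%) and 13.3% (9.69 to 17.6%) of cells under IL4+IL13 and in 19.8% (15.5 to 24.7%) and 11.8% (8.38 to 15.9%) under IL4+IL13+TNF. Unthinned, the shares were 5.88% and 16.8%, then 22.8% and 15.5%. In mouse 2 the intervals of the treatments overlapped. There, Cxcl1 was found in 26.0% of IL4+IL13 cells on plate 4 and 6.88% on plate 5, unthinned. Many of these cells held a trace and came in runs of successive wells, which was not tested further.

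High-expressing Cxcl1 cells were few. They made up 0.56% and 0.30% under IL4+IL13 and 10.1% (7.13 to 13.7%) and 1.43% (0.467 to 3.31%) under IL4+IL13+TNF. With TNF, 10 cells of mouse 1 and 3 cells of mouse 2 held 50% of the summed CPM of the gene. Under IL4+IL13, 2 cells and 1 cell did.

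Cxcl3 was the least abundant of the CXCR2 ligands. Its level was 0.011 and 0.320 CPM under IL4+IL13, from 2 and 54 fragments, and 4.79 and 0.609 CPM under IL4+IL13+TNF, from 746 and 107 fragments. The treatments did not overlap, and the mice differed under both. The log2 fold change was 4.03 (SE 1.66), with an adjusted p of 0.640 in edgeR's quasi-likelihood test, 0.330 with the mouse as a block and 0.0408 in DESeq2. In mouse 1, a single cell of plate 2 at 1093 CPM held 51.2% of the gene's CPM with TNF, and another at 832 CPM most of the rest. Without the highest cell of each set, the fold change was 2.90 (edgeR's adjusted p 0.768).

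The plates of Cxcl3 were 0.011, 0.011, 0.349 and 0.315 CPM under IL4+IL13 and 9.85, 0.334, 0.437 and 0.751 CPM under IL4+IL13+TNF. All but the first TNF plate lay close to the mouse 2 plates without TNF. At equal depth, 0.602% and 8.09% of cells carried Cxcl3 under IL4+IL13 and 2.31% and 9.15% under IL4+IL13+TNF. Unthinned, the shares were 0.56% and 12.6%, then 2.88% and 12.3%. The share separated the mice more than the treatments. In mouse 2, 73.8% of the carriers under IL4+IL13 and 67.4% with TNF held a single fragment. Under IL4+IL13 many of these traces came in runs of successive wells. Whether they came from the cells themselves was not tested. 2 cells were over 100 CPM, both in mouse 1 with TNF. The 0 of 357 and 0 of 333 cells under IL4+IL13 gave 95% Clopper-Pearson upper limits of 1.03% and 1.102%, and a floor of 3 counts, taken per set, allows a share of up to 0.84% and 0.901%.

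Because Cxcl1, Cxcl2 and Cxcl3 are related in sequence and only uniquely mapped fragments were counted, fragments that fit more than 1 of them would be missing from all, and their levels carry that uncertainty. Within a cell the genes went together only in part. With TNF in mouse 1, 30 of 35 Cxcl1-high cells were also Cxcl2-high (85.7%), against 17.2% of the 174 Cxcl2-high cells that were Cxcl1-high. In mouse 2 the same counts were 4 of 5 Cxcl1-high cells and 6.15% of the 65 Cxcl2-high cells. High Cxcl1 thus lay mostly inside the Cxcl2-high cells, and most Cxcl2-high cells lacked high Cxcl1. Across the 347 and 349 cells, Spearman's rho between Cxcl1 and Cxcl2 was 0.272 and 0.183, which is a description of sparse counts that share depth within each cell. Both cells with high Cxcl3 were Cxcl2-high, at 701 and 868 CPM.

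**Figure D3:**
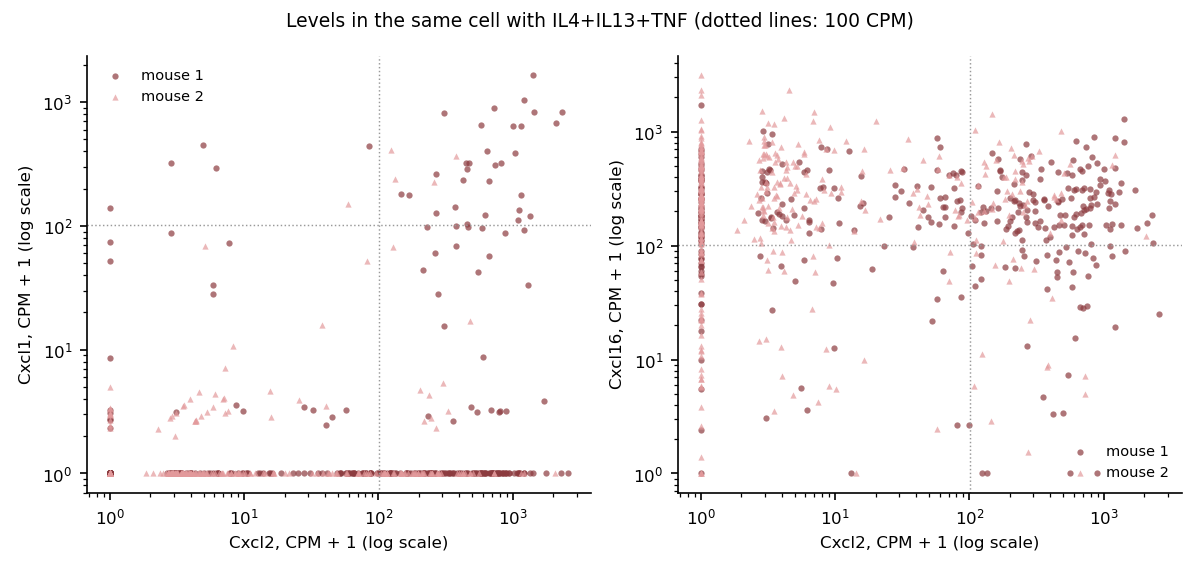
Cxcl1 (left) and Cxcl16 (right) against Cxcl2 in the same cell with IL4+IL13+TNF, as CPM + 1 on log axes, with 1 point per cell (circles mouse 1, triangles mouse 2) and dotted lines at 100 CPM. Cells with high Cxcl1 fall mostly to the right of the Cxcl2 line, 30 of 35 in mouse 1, while Cxcl16 is high on both sides of it.

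Cxcl16, the membrane-bound CXCR6 ligand, was the most widely found member. Its level was 69.2 and 138 CPM under IL4+IL13 and 262 and 357 CPM under IL4+IL13+TNF. The treatments did not overlap, and mouse 2 was above mouse 1 under both. The log2 fold change was 1.58 (SE 0.38), with an adjusted p of 0.362 in edgeR's quasi-likelihood test. With the mouse as a block, Cxcl16 rose by 1.65 on the log2 scale (SE 0.16) at an adjusted p of 0.0135, and DESeq2 gave an adjusted p of 0.00284.

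By plate, Cxcl16 read 74.6, 67.1, 121 and 169 CPM on plates 2 to 5 under IL4+IL13 and 233, 266, 398 and 301 CPM under IL4+IL13+TNF. The lowest TNF plate was above the highest IL4+IL13 plate. Within plates the log2 ratio was 1.64 and 1.98 on the plates of mouse 1, and 1.72 and 0.83 on those of mouse 2. The mice overlapped in the size of the difference. By well rows, the mean per cell with TNF was 232 CPM in rows I to L and 264 CPM in rows M to P in mouse 1, and 340 and 371 CPM in mouse 2. Under IL4+IL13 it was 78.7 CPM in rows A to D and 68.8 CPM in rows E to H in mouse 1, and 174 and 116 CPM in mouse 2.

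At equal depth, Cxcl16 was found in 66.6% (61.2 to 71.6%) and 80.9% (76.1 to 85.1%) of cells under IL4+IL13 and in 98.02% (95.7 to 99.3%) and 99.0% (97.2 to 99.8%) under IL4+IL13+TNF. Unthinned, the shares were 69.2% and 86.5%, then 98.3% and 98.9%. Nearly every cell carried the transcript once TNF was present. High-expressing cells made up 24.4% (20.005 to 29.2%) and 40.8% (35.5 to 46.3%) under IL4+IL13 and 76.1% (71.2 to 80.5%) and 78.8% (74.1 to 83.0%) under IL4+IL13+TNF. The mice differed in this share without TNF, and their intervals overlapped with it.

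Cxcl16 was also spread over more cells than Cxcl2. With TNF, 77 of 347 cells of mouse 1 and 68 of 349 cells of mouse 2 held 50% of its summed CPM, against 45 and 17 cells for Cxcl2. The median cell with TNF read 194 and 260 CPM of Cxcl16 and 102.4 and 2.39 CPM of Cxcl2. Under IL4+IL13 the median cell read 18.3 and 53.9 CPM of Cxcl16, and 0 and 0.974 CPM of Cxcl2. Both genes were thus at 0 or at a trace in more cells without TNF, but in mouse 2 the typical cell with TNF still had hardly any Cxcl2.

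**Figure D4:**
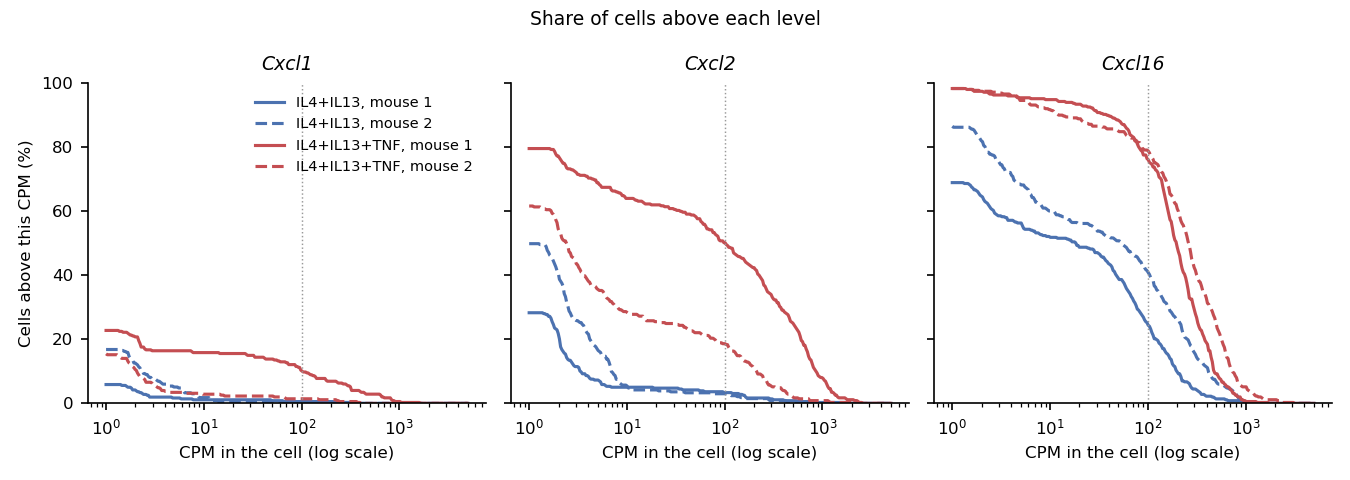
Share of cells (%) above each CPM (log axis) for Cxcl1, Cxcl2 and Cxcl16, with 1 line for each treatment and mouse and a dotted line at 100 CPM. The TNF lines of Cxcl16 nearly coincide, crossing 100 CPM at 76.1% and 78.8%, while those of Cxcl2 stand apart at 50.1% and 18.6%.

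High Cxcl16 stood at a similar share among Cxcl2-high cells and among all cells. With TNF, 75.3% of the Cxcl2-high cells of mouse 1 and 75.4% of those of mouse 2 were Cxcl16-high, beside 76.1% and 78.8% of all cells. Spearman's rho between both genes across cells was 0.004 and 0.042 with TNF and 0.051 and 0.022 under IL4+IL13. Cells with Cxcl2 and Cxcl16 both over 100 CPM made up 1.401% and 1.201% under IL4+IL13 and 37.8% and 14.04% under IL4+IL13+TNF. Cells with no chemokine of the 7 over 100 CPM made up 73.1% and 56.8% under IL4+IL13, then 11.5% and 16.3%.

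The mix of chemokine transcripts differed between the mice with TNF. Summed over cells as mean CPM, Cxcl16 was 71.8% and 90.9% of the CPM of the 7 genes under IL4+IL13 and 39.7% and 83.0% under IL4+IL13+TNF. Cxcl2 was 14.9% and 6.52%, then 48.8% and 14.9%. With TNF, Cxcl2 thus held the greatest share in mouse 1 and Cxcl16 in mouse 2.

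Cxcl10, a CXCR3 ligand best known as an interferon target, rested on single cells. Its level was 15.8 and 1.01 CPM under IL4+IL13 and 17.99 and 2.88 CPM under IL4+IL13+TNF. The treatments overlapped, and each mouse kept its rank under both. The log2 fold change was 0.31 (SE 1.38), with an adjusted p of 0.986 in edgeR's quasi-likelihood test and 0.277 with the mouse as a block. In each of the 4 sets, 1 cell held over 50% of the summed CPM: 97.2% and 63.4% under IL4+IL13, and 66.7% and 53.4% under IL4+IL13+TNF.

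The highest Cxcl10 cells read 4205 CPM, in mouse 1 with TNF, and 4053 CPM, in mouse 1 with IL4+IL13 only. Without the highest cell of each set the log2 fold change was 3.50 (SE 0.98, edgeR's adjusted p 0.437), and without the IL4+IL13 sum of mouse 1 it was 3.37. Without the IL4+IL13 sum of mouse 2 or the TNF sum of mouse 1 its sign turned, to -0.59 and -1.54. Plates 2 to 5 read 31.8, 0.494, 0.221 and 1.98 CPM under IL4+IL13 and 2.41, 29.3, 5.48 and 0.188 CPM under IL4+IL13+TNF. The level was higher with TNF on plates 3 and 4 and lower on plates 2 and 5, once each way in each mouse.

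The share of cells with Cxcl10 overlapped between the treatments. At equal depth it was 4.22% (2.32 to 6.97%) and 5.83% (3.49 to 9.05%) under IL4+IL13 and 5.28% (3.05 to 8.43%) and 5.56% (3.27 to 8.75%) under IL4+IL13+TNF. All intervals overlapped. Unthinned, it was 5.60% and 8.41%, then 6.34% and 7.45%. Cells over 100 CPM numbered 1 and 1 under IL4+IL13 and 5 and 2 under IL4+IL13+TNF.

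Cxcl9, the other CXCR3 ligand, was near the level of genes that macrophages do not use. It gave 4 and 4 fragments under IL4+IL13 and 2 and 63 under IL4+IL13+TNF, of which 60 came from 1 cell of plate 4. Levels were 0.022 and 0.024 CPM, then 0.013 and 0.358 CPM. Over both mice, 1.01% of IL4+IL13 cells and 0.862% of IL4+IL13+TNF cells carried it, as many as for the T cell gene Cd3e (1.01% and 0.862%). The 8 lymphocyte markers ranged from 0% of cells for Ncr1 to 3.48% for Ms4a1. At this depth its presence could not be told from that background, except in the 1 cell at 198 CPM.

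Cxcl14, known from epithelia, gave 31 and 154 fragments under IL4+IL13 and 66 and 3 under IL4+IL13+TNF. Levels were 0.1701 and 0.911 CPM, then 0.424 and 0.017 CPM. The treatments overlapped, and the mice went opposite ways. A single cell at 198 CPM held 96.1% of the CPM of mouse 2 under IL4+IL13. Over both mice, 1.01% of IL4+IL13 cells and 1.15% of IL4+IL13+TNF cells carried it.

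Levels per kilobase of exon allow the genes to be ranked within a treatment. Under IL4+IL13, Cxcl16 stood first at 22.9 and 45.5 CPM per kilobase, apart from Cxcl2 at 6.54 and 4.47. Cxcl10, at 7.01 and 0.447, overlapped both Cxcl2 and Cxcl1, which read 0.837 and 1.15. Cxcl14 (0.093 and 0.499) lay below Cxcl1 and overlapped Cxcl10. Cxcl3 (0.003 and 0.091) and Cxcl9 (0.007 and 0.008) were below Cxcl14 and overlapped each other. With TNF, Cxcl2 at 152 and 36.1 and Cxcl16 at 86.7 and 118 CPM per kilobase overlapped in their spread over mice, followed by Cxcl1 at 29.5 and 2.98 and Cxcl10 at 7.99 and 1.28, which overlapped as well.

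The other genes of the CXC family gave little. Of 8 further ligands, only Pf4, a platelet factor also made by macrophages, passed the filter, at 48.6 and 30.6 CPM under IL4+IL13 and 53.4 and 67.3 CPM under IL4+IL13+TNF. Its treatments did not overlap, and its adjusted p was 0.699 in edgeR's quasi-likelihood test and 0.235 with the mouse as a block. Of 8 receptors only Cxcr4, the receptor of CXCL12, passed, at 17.8 and 25.0 CPM, then 17.5 and 23.3 CPM (log2 fold change -0.07, SE 0.28, adjusted p 0.986 in edgeR). Cxcr2 and Cxcr3, which bind the ligands above, were found in 1.72 to 3.19% of the cells of either treatment, and Cxcr6, the CXCL16 receptor, in 1.01% and 0.287%.

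Genes of the pathways named above were counted from lists of genes with known roles. The lists were chosen with earlier results of these data known, so their counts are a description and no independent result. Of 24 NF-kB feedback and target genes, all tested, 15 rose and 0 fell in edgeR with the mouse as a block, 1 rose without the block, and 15 rose in DESeq2. Of all genes tested, 1.94% rose with the block, 0.00587% without it and 1.79% in DESeq2. Their median log2 fold change was 1.79. Clec4e, a lectin that senses mycobacterial lipid, rose by 5.09 on the log2 scale (SE 0.19) at an adjusted p of 0.0203 in edgeR. With the block, so did Sod2, a mitochondrial antioxidant enzyme (2.01, adjusted p 0.00576), Nfkbie, an inhibitor of NF-kB (3.19, adjusted p 0.00576), and Ptgs2, an enzyme of prostaglandin synthesis (4.28, adjusted p 0.0087).

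**Figure D5:**
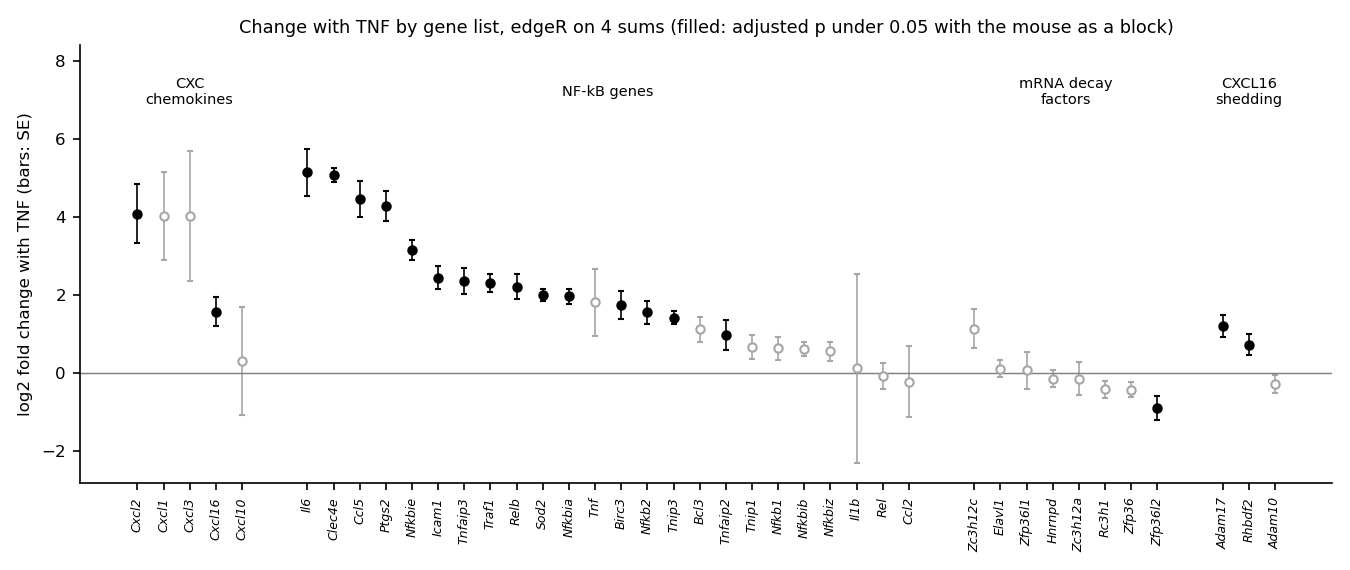
Log2 fold change with TNF (edgeR on 4 sums, bars SE) of the tested members of 4 gene lists, filled where the adjusted p was under 0.05 with the mouse as a block. 15 of 24 NF-kB genes are filled, beside 2 of 5 chemokines.

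Among 8 factors that destabilise or bind chemokine mRNA, 1 fell with the block, against 3.82% of all genes in either direction. It was Zfp36l2 (-0.86, adjusted p 0.03001 in edgeR with the block and 0.562 without it), a relative of tristetraprolin. With the block, log2 fold changes were 1.24 for the ribonuclease Zc3h12c, -0.41 for tristetraprolin itself, Zfp36, and -0.41 for the RNA-binding protein Rc3h1. Their adjusted p were 0.0645, 0.129 and 0.167 in edgeR with the block and 0.671, 0.681 and 0.724 without it. Of 3 genes for the shedding of CXCL16, 2 rose in edgeR with the block, 0 without it and 1 in DESeq2. The shares of all genes were 1.94%, 0.00587% and 1.79%. With the block, Adam17, a protease that releases membrane proteins, rose by 1.27 (edgeR's adjusted p 0.0302, and 0.353 without the block). Rhbdf2, which Adam17 needs to mature, rose by 0.76 (edgeR's adjusted p 0.0480, and 0.582 without the block). Adam10, the other protease known to cut CXCL16, read -0.27 without the block (adjusted p 0.874) and -0.26 with it (adjusted p 0.2996). Protein and its shedding were not analysed here.

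Genes were also compared with the chemokines from cell to cell. Of 12938 genes detected in 10% or more of cells in every set, none reached a mean Spearman rho of 0.3 over the 4 sets with any of the 7. For members at 0 in most cells, such as Cxcl3, Cxcl9, Cxcl10 and Cxcl14, the many ties keep rho low. The threshold thus cannot tell whether another gene followed them. The highest mean rho, chosen after its value was seen, was 0.198 between Cxcl2 and Nfkbia, an inhibitor of NF-kB. It ranged from -0.010 to 0.387 over the sets. For Cxcl1 and for Cxcl3 the gene with the highest mean was Cxcl2, at 0.189 and 0.1697. Over the sets these ranged from 0.020 to 0.281 and from 0.054 to 0.230, both lowest in mouse 1 under IL4+IL13. The level of Cxcl2 and of Cxcl16 correlated only weakly with depth, with rho to the total between -0.106 and 0.081 over the sets.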

How the data were processed

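The deposited file is a matrix of whole-number counts, 1 column for each sorted well, with no normalization by the authors and PCR copies included. The methods of the study name gsnap for alignment to mm10 and featureCounts 1.6.3 for assigning uniquely mapped fragments to Ensembl 98 annotation, and the file header shows counting without regard to strand. 8 columns fit no label and were left aside, and 92 spike-in rows stayed out of totals and tests.

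Low-quality wells were removed plate by plate (138 of 1524) when depth or gene number was low, or mitochondrial or spike-in share high, by over 3 scaled median absolute deviations. The mouse was the replicate. Sums per mouse and treatment were tested with edgeR 4.0.16 (quasi-likelihood, TMM, Benjamini-Hochberg adjustment) on 17034 genes that passed filterByExpr and were detected in 5% or more of either treatment's cells, after a test on simulated data. The other settings were a replicate block for the mouse, DESeq2 1.42.0, plain library size, no gene filter, limma 3.58.1 on log2(mean CPM + 1), other cell filters and 1 sum left out at a time. A mouse number marks 1 animal under both treatments, so the numbers pair the samples. Deviations of same-numbered sums from their treatment means had r = 0.568 over the genes tested. Each mouse had its own plates and perhaps its own experiment, so this r cannot tell a shared animal from shared plates or a shared experiment. No separate cultures within a mouse are named, so p-values cover the spread between these mice only. For shares, 1250 of the 1386 cells were thinned to 339000 fragments, and the other 136 were shallower. R 4.3.3 and Python 3.11.15 with scipy 1.17.1 were used.

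The members and gene lists were chosen with earlier results of these data known. The result of 1 gene list is not reported here, although its genes count among the listed genes. The genes named are the 7 members, the tested further CXC ligands and receptors, and up to 4 genes of each other list with the smallest p. Promoter sequences are from RefSeq (GRCm38.p6). Of 4 samples whose mouse the labels do not give, 3 are in the table, and they entered no comparison.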

Additional observations from a re-analysis of the deposited data

Results flagged for a closer look

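Of 14 sets of 4 plates (7 chemokines, 2 treatments), 3 had 1 plate far from the others, where chance gives about 1 in 20. Cxcl3 with IL4+IL13+TNF read 9.85 CPM on plate 2, against 0.334 to 0.751 CPM on the other plates, and 2 cells held most of it. Cxcl9 with IL4+IL13+TNF read 0.672 CPM on plate 4, against 0.011 to 0.033 CPM elsewhere, with 60 of its 60 fragments there in 1 cell. Cxcl10 with IL4+IL13 read 31.8 CPM on plate 2, against 0.221 to 1.98 CPM elsewhere, with 2824 of its 2831 fragments in 1 cell. That cell had 696758 fragments in all and 9399 genes, and 0 CPM of Cxcl1, Cxcl2 and Cxcl3.

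The labels name IL4+IL13 but no mouse for 4 wells, and the 3 of them in the table entered no comparison. Their titles carry the letter B and place them in row P, where the other wells held IL4+IL13+TNF. How many cells each held is not stated, so the single cells below are a reference only. The well of plate 3 read 64.4 CPM of Cxcl1, from 18 fragments, where the highest IL4+IL13 cell of that plate read 5.72 CPM. The same well read 96.6 CPM of Cxcl2, above the 95th percentile of IL4+IL13 cells of the plate (5.42 CPM) and below their highest (1703 CPM). The well of plate 4 read 59.2 CPM of Cxcl2, where that percentile was 8.53 CPM. These wells held 10802 and 11121 genes, from 279461 and 354874 fragments. The median IL4+IL13 cell held 7874 genes in mouse 1 and 7431 in mouse 2, from 479576 and 477262 fragments. The well of plate 5, with 87198 fragments, read no chemokine above its plate's percentile.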

How the results depend on the processing

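With 2 mice per treatment, what passes depends on how the mouse enters the test. With the mouse as a replicate block, 651 genes, 2 chemokines and 20 genes of the pathway and family lists passed, and with DESeq2 598, 4 and 17, against 1, 0 and 1 in edgeR without the block. Leaving out 1 sum at a time gave 4 to 30 genes (30 without the TNF sum of mouse 1), 0 to 2 chemokines (Cxcl1 and Cxcl2, without the TNF sum of mouse 2) and 1 to 4 listed genes (4 without the TNF sum of mouse 1). A lone sum is then assumed to vary like the other treatment. Library size, no gene filter, limma on mean CPM and both other cell filters left these counts at 1, 0 and 1. The log2 fold change of Cxcl10 ran from -1.54 to 3.37 over sums left out, with -0.59 without IL4+IL13 of mouse 2 (the cause was not tested). Those of Cxcl1, Cxcl2, Cxcl3 and Cxcl16 kept their sign in every alternative, with 1.59 to 4.89, 2.71 to 4.79, 1.88 to 7.85 and 1.16 to 2.16 over sums left out. Taking out the highest well of each set, and no gene filter with the block, were chosen after seeing the data, and the latter kept Cxcl2 (adjusted p 0.0255) and Cxcl16 (0.0230) as calls. Without a gene filter, edgeR's adjusted p was 0.852 for Cxcl9 and 0.887 for Cxcl14. For the shares of cells, 4 differences between treatments moved by more than the spread over mice: Cxcl10 with both other cell filters (-0.424 and -0.735 points in place of 0.397), Cxcl16 with at least 5 fragments (37.6 in place of 24.8) and high-expressing Cxcl3 cells with 50 CPM as the threshold (0.72 in place of 0.288). PCR copies are counted and 2 mice were used, so intervals on shares understate the error.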
